A study of Drosophila melanogaster with 29 samples.

Results

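The transcripts described here are those of 5 muscle genes of Drosophila melanogaster, the titin-like genes sls, bt and zormin and the calcium handling genes RyR (also written Rya-r44F) and CaMKII. Every probe set whose gene symbol is 1 of these 5 was taken, which gave 13 of the 13966 probe sets on the array that are not array controls. There were 4 probe sets for sls, 2 for bt, 5 for zormin and 1 each for RyR and CaMKII. RNA was measured on 29 arrays, 15 of adult males and 14 of adult virgin females, from wild-type stocks kept for years in the laboratory and labelled France, Antigua, Glasgow Oregon R, Cambridge Oregon R and Japan Oregon R (Hikone), with no transgene, mutation or treatment named. Glasgow and Cambridge are stocks of the same Oregon R strain held in different places, and Hikone, which the study counts apart from Oregon R, is called by that name below. Each group of a strain and sex had 3 replicates, and Hikone females had 2 because the authors discarded an array. Flies were raised at 25°C and taken 0 to 6 hours after eclosion, with the exception that the growth label of France female replicate 3 gives 3 to 5 days. RNA was extracted separately for each replicate, but no source used here says that replicates came from separate cultures, so that p-values measure the spread between these samples.

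Insect flight and leg muscles hold elastic filaments that tie the thick filaments to the Z-disc, the border of each contractile unit, and much of their stiffness comes from giant proteins related to vertebrate titin. The sls gene encodes Sallimus, also called kettin in a short form, which spans from the Z-disc to the ends of the thick filaments. The bt gene encodes Projectin, a giant kinase of the twitchin family, and zormin encodes a further titin-related protein found at the Z-disc and the middle of the sarcomere. RyR encodes the ryanodine receptor, the channel through which calcium leaves the sarcoplasmic reticulum to start contraction, and CaMKII encodes the calcium and calmodulin dependent kinase, best known from synapses and also present in muscle. By RefSeq annotation of the Release 6 assembly, sls and zormin lie next to each other on the left arm of chromosome 3 with 0 genes between them, bt and CaMKII both lie on chromosome 4 with 14 protein-coding genes between them, and RyR lies on the right arm of chromosome 2.

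All values are GCRMA summaries of a probe set on the log2 scale, so that a difference of 1 is a doubling, and levels of different probe sets are not set against each other. Replicates of a group correlated at 0.962 to 0.996 over all probe sets, and array medians were 4.45 to 4.605 in males and 4.30 to 4.42 in females. The male transcript SP was at 10.64 to 11.91 in males and at 1.07 to 1.26 in females. Yp1, a yolk protein gene of females, was at 10.85 in Cambridge male replicate 1 and at most 5.38 in the other males, against 12.71 to 13.90 in females, so that this male array carries transcripts of females. Of 19 listed thick and thin filament genes of muscle 11 could be read by a probe set with 1 symbol, and Mhc, Act57B, Tm1 and wupA could not. The 11 were well detected in both sexes. Their mean was between 10.66 and 11.87 in male arrays and between 8.48 and 11.37 in female arrays. The array and its probe sets measure RNA of whole flies, in which fewer cells of a type and less RNA per cell cannot be told apart.

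Of the 13 probe sets, 6 differed between males and females at a Bonferroni-adjusted p below 0.01 in a linear model with 1 mean for each of the 10 groups, the threshold used for every call here, and all 6 were higher in males. They covered all 5 genes. Over all probe sets 46.8% were called, 18.1% higher and 28.8% lower in males. For zormin 152251_at and for RyR every male array lay above every female array, as it did for 9.75% of all probe sets.

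RyR showed the largest difference of the 13 probe sets between the sexes. Its probe set 143650_at ran from 8.14 through a median of 8.64 to 9.05 in the 15 males, against 4.83, 6.79 and 8.05 in the 14 females. The difference was 2.06 ± 0.10 (SE), a 4.16-fold higher signal in males, with an adjusted p of 5.23e-11 by limma. The male values lay close together and the female values spread widely, with the lowest 3 from Glasgow and the highest 3 from Antigua.

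The sls probe set 142465_at ran from 6.68 through 7.66 to 8.29 in males, against 4.25, 5.54 and 7.10 in females, a difference of 1.93 ± 0.11 (3.81-fold, adjusted p = 1.22e-09). Here 12 of the 15 male arrays lay above every female array, and the 3 Antigua female arrays were the ones that reached into the male range. A further sls probe set, 143611_at, ran from 5.64 through 6.23 to 7.02 in males, against 3.91, 4.85 and 5.87 in females, and differed by 1.34 ± 0.13 (2.54-fold, adjusted p = 2.09e-05). These sls probe sets, 142465_at and 143611_at, gave the same direction with different sizes, and which transcript forms each detects is not given in the sources used here.

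The zormin probe set 152251_at ran from 7.15 through 7.50 to 7.93 in males, against 5.28, 6.26 and 6.81 in females, a difference of 1.37 ± 0.06 (2.59-fold) with the lowest adjusted p of the 13, 2.29e-12. The bt probe set 152127_at ran from 8.42 through 9.29 to 9.99 in males, against 6.74, 7.76 and 9.09 in females, a difference of 1.33 ± 0.09 (2.51-fold, adjusted p = 3.02e-08). Of the male arrays 11 lay above every female array for bt, while 2 Antigua and 2 Hikone female arrays were above the lowest male. CaMKII, probe set 142793_at, differed least, from 4.66 through 4.99 to 6.03 in males, against 3.30, 4.49 and 5.21 in females, by 0.77 ± 0.09 (1.70-fold, adjusted p = 0.000311). Only 6 of the 15 male arrays were above every female array for CaMKII. All 6 calls held when each of the 29 arrays was left out in turn, and without both Cambridge male replicate 1 and France female replicate 3, where the highest adjusted p was 0.00309 for CaMKII.

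**Figure D1:**
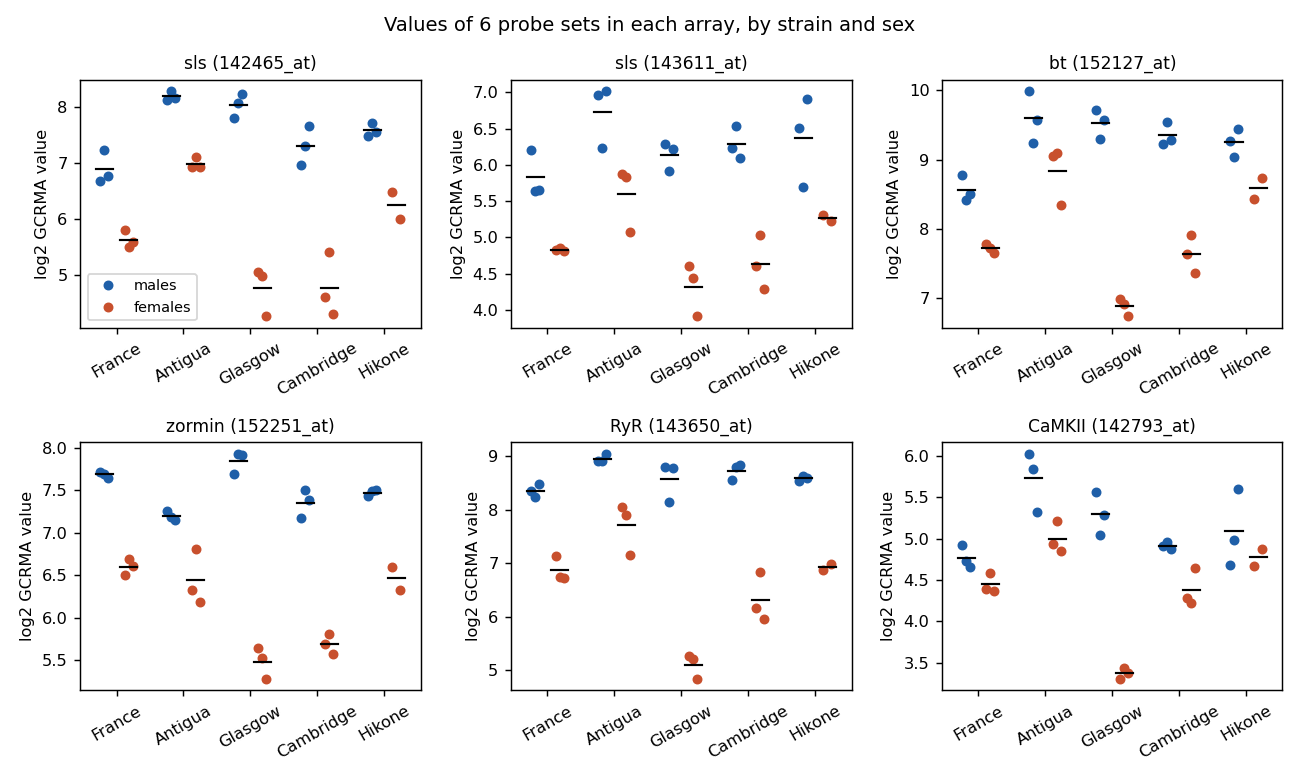
Log2 GCRMA value (y axis) of the 6 probe sets called for sex in each of the 29 arrays, by strain (x axis), with males in blue to the left of females in orange and a black line at each group mean. The Glasgow females are the lowest female group in each panel, while the means of Glasgow males sit among those of the other males or, for zormin, at the top.

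The other 7 probe sets were not called between the sexes. The bt probe set 150988_at was at 4.69 to 6.03 in males, against 4.76 to 5.49 in females, a difference of 0.19 ± 0.05 at an adjusted p of 1. The 2 remaining sls probe sets and 4 remaining zormin probe sets were dim, with their highest group means between 2.11 and 4.30, which put them above only 7.69% to 41.1% of all probe sets, and their differences between the sexes ran from -0.15 to 0.08. Of these 6 dim probe sets 4 followed the general level of their array in both sexes. For the sls probe set 151579_s_at the correlation with the lower quartile of all probe sets on the array was 0.97 over the 15 male arrays and 0.93 over the 14 female arrays, for the sls probe set 148020_at 0.96 in males and 0.93 in females, for the zormin probe set 148022_at 0.97 and 0.95 and for the zormin probe set 148023_at 0.87 and 0.98. The zormin probe set 148021_at did so only in females, at 0.99 against 0.11 in males, and 148024_at less in both sexes, at 0.63 in males and 0.56 in females. By comparison it was 0.10 in males and -0.05 in females for RyR. As points of such a correlation share their array, it describes these arrays only. Values this low do not show whether a transcript is present, and the 6 dim sets are not discussed further.

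**Figure D2:**
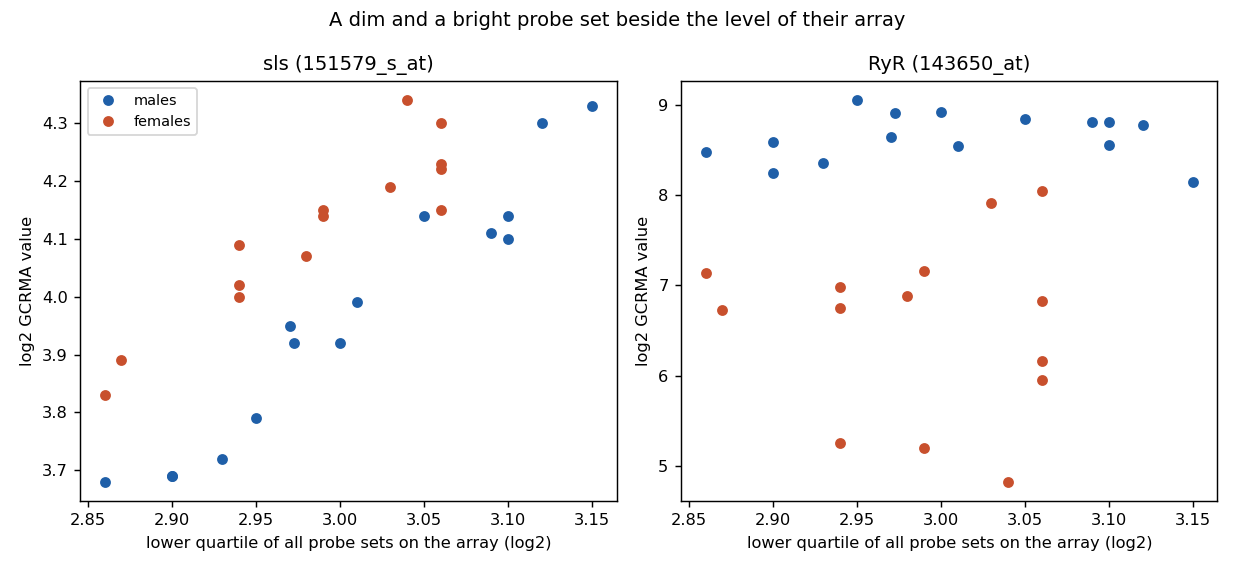
Log2 GCRMA value (y axis) of the dim sls probe set 151579_s_at and of the RyR probe set 143650_at against the lower quartile of all probe sets on the same array (x axis, log2), 1 point for each array, males in blue and females in orange. The dim sls probe set follows the array's level in both sexes, and RyR does not.

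The difference between the sexes was not of the same size in each strain. It was widest in Glasgow for all 6 probe sets called for sex, and in Cambridge it was the next widest for 5 of them, CaMKII being the exception. In Glasgow males exceeded females by 3.48 ± 0.22 for RyR (11.2-fold), 3.28 ± 0.24 for sls 142465_at (9.71-fold), 2.65 ± 0.20 for bt 152127_at (6.26-fold), 2.36 ± 0.13 for zormin 152251_at (5.13-fold) and 1.93 ± 0.19 for CaMKII (3.82-fold). These 5 were called, with adjusted p from 2.56e-10 to 2.73e-05, where 32.9% of all probe sets were called. In Cambridge 4 were called, RyR at 2.41, sls 142465_at at 2.54, bt 152127_at at 1.71 and zormin at 1.66, where the background was 25.7%. In France only zormin was called, at 1.09 ± 0.13 (adjusted p = 0.000355, background 22.5%), and so it was in Hikone, at 1.01 ± 0.14 (adjusted p = 0.00663, background 22.5%). The Hikone call was lost in 19 of the 29 fits that left out 1 array, and without the pair of arrays named above (0.0113). In Antigua 0 of the 13 were called by limma (background 22.1%) and 11 had an unadjusted p below 0.05, with RyR at 1.25 ± 0.22 and an adjusted p of 0.174. Not all of these 11 were higher in males, as some dim probe sets were lower in males there. A strain in which a difference misses the threshold is not thereby shown to differ from another strain, and that was tested as an interaction.

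**Figure D3:**
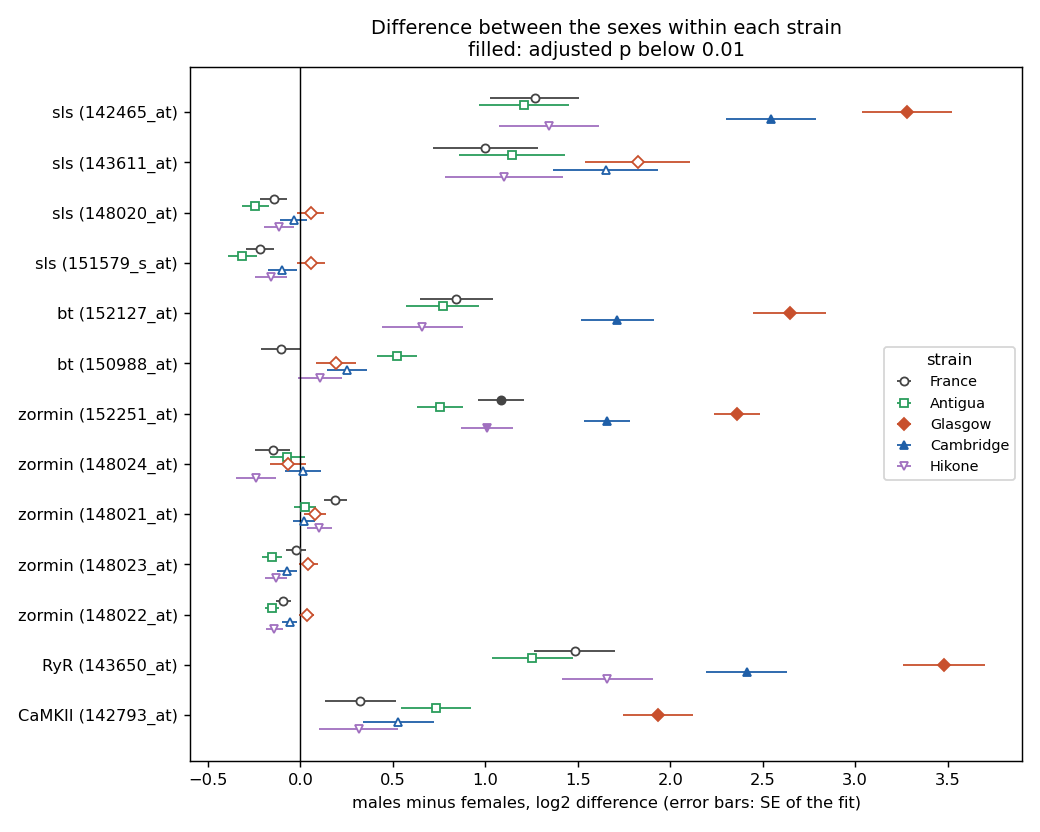
Log2 difference of males minus females (x axis) within each strain for all 13 probe sets (rows), with the SE of the fit as error bars and filled symbols where the adjusted p is below 0.01. The Glasgow difference lies farthest to the right for the 6 probe sets called for sex, and the dim probe sets lie close to 0.

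Of the 13 probe sets 1 was called for an interaction of sex with strain, zormin 152251_at, at an adjusted p of 0.00125, while 2.56% of all probe sets were called. It was just lost, at 0.0100008, without Glasgow male replicate 2. The adjusted p was 0.0240 for bt 152127_at, 0.0398 for RyR, 0.114 for sls 142465_at and 0.439 for CaMKII. After this had been seen, the male minus female difference of each strain was set against the mean of that difference in the other 4 strains. In Glasgow the difference was wider than in the other strains by 1.23 ± 0.14 for zormin (adjusted p = 0.000309), by 1.65 ± 0.22 for bt 152127_at (0.00399) and by 1.78 ± 0.25 for RyR (0.00680), all called, where 1.32% of all probe sets were called as higher. It was wider by 1.46 ± 0.22 for CaMKII (0.0164) and 1.69 ± 0.27 for sls 142465_at (0.0567), which were not called. All 5 probe sets were listed by the study as variable in females from these same arrays, so that these calls are not independent evidence. The zormin value was called in all 29 fits with an array left out, bt in 23 and RyR in 5. Without both Cambridge male replicate 1 and France female replicate 3, the bt and RyR values were no longer called (adjusted p = 0.0155 and 0.0200).

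Among the females, 5 of the 13 probe sets differed between strains, 1 for each gene, where 6.53% of all probe sets were called. The adjusted p by limma's F-test was 4.01e-05 for RyR, 0.000210 for zormin 152251_at, 0.000293 for sls 142465_at, 0.000370 for bt 152127_at and 0.00794 for CaMKII. The study listed these same 5 probe sets as variable in females from the same arrays, and the CaMKII probe set could be named only through that list, so that the count is not independent evidence. The CaMKII call was lost in 22 of the 29 fits that left out 1 array, with the highest adjusted p, 0.167, without Glasgow female replicate 1, and without the pair of arrays named above it was 0.0321. The other 4 calls held in all 29. All 5 calls rest on a spread estimated from both sexes: with the 14 female arrays fitted on their own by limma 0 of the 13 were called (12 had an unadjusted p below 0.05), with adjusted p of 0.0175 for CaMKII, 0.173 for bt 152127_at, 0.306 for RyR, 0.621 for sls 142465_at and 0.879 for zormin 152251_at. That fit called 0.909% of all probe sets for strain, against 6.53% in the fit of both sexes. It made 1 call of a single strain against the other 4 over the 13 probe sets, against 7 in the fit of both sexes.

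The low end of the female range was Glasgow. RyR was at 5.26, 5.20 and 4.83 in the 3 Glasgow females, against 5.96 to 8.05 with a median of 6.88 in the 11 females of the other strains. No Glasgow array overlapped with the others, and the Glasgow mean lay 1.86 ± 0.18 below the mean of the other 4 strains (3.63-fold, adjusted p = 1.23e-05, held in all 29 fits with an array left out). As lower in Glasgow females 2.96% of all probe sets were called. The member probe sets called were all listed by the study as variable in females from these same arrays. Calls of single strains in females, here and below, are therefore not independent evidence. Every Glasgow female array lay below every other female array for 3 of the 13 probe sets. The share of all probe sets for which this holds is not given here, so the lack of overlap has no background. The same applies to each lack of overlap between a single strain and the others reported below.

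CaMKII was at 3.30, 3.44 and 3.37 in Glasgow females, against 4.22 to 5.21 with a median of 4.65 in the other females. The Glasgow values again lay below all others, by 1.28 ± 0.15 (2.43-fold, adjusted p = 0.000642), a call lost without any 1 of the 3 Glasgow female arrays (0.0225 without replicate 1, the highest). They were as low as the dim probe sets, whose highest group means were 2.11 to 4.30. Folds of CaMKII that involve Glasgow females therefore rest on a low signal. For bt, 152127_at was at 6.99, 6.92 and 6.74 in Glasgow females, against 7.37 to 9.09 with a median of 7.92 in the others. This too was a gap without overlap, of 1.31 ± 0.16 (2.49-fold, adjusted p = 0.000679), lost without Glasgow female replicate 2 or 3 (highest 0.0303).

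The titin-like genes at the Z-disc overlapped with the other strains. For zormin, 152251_at was at 5.65, 5.53 and 5.28 in Glasgow females, against 5.58 to 6.81 with a median of 6.33 in the others, a difference of -0.81 ± 0.10 (adjusted p = 0.00104) that was lost without Glasgow female replicate 2 or 3 (highest 0.0582). For sls, 142465_at was at 5.04, 4.98 and 4.25 in Glasgow females, against 4.30 to 7.10 with a median of 5.80 in the others, and the difference of -1.15 ± 0.19 was not called (adjusted p = 0.106). The Cambridge females, at 4.59, 5.41 and 4.30, were as low for this probe set as those of Glasgow. The sls probe set 143611_at was at 3.91 to 4.61 in Glasgow females, against 4.29 to 5.87 in the others, and was not called either.

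The high end was Antigua. For sls, 142465_at was at 6.92, 7.10 and 6.93 in the Antigua females, against 4.25 to 6.48 with a median of 5.41 in the 11 other females. All 3 Antigua arrays lay above every other female array, by 1.64 ± 0.19 on average (3.11-fold, adjusted p = 0.000554), where 0.816% of all probe sets were called as higher in Antigua females. The sls probe set 143611_at was not called. It was at 5.07 to 5.87 in Antigua females, against 3.91 to 5.31 in the others, which overlapped. RyR was at 8.05, 7.91 and 7.16 in Antigua females, against 4.83 to 7.14 with a median of 6.73 in the others, also without overlap, a difference of 1.40 ± 0.18 (2.64-fold, adjusted p = 0.00140). For bt, 152127_at was at 9.06, 9.09 and 8.34 in Antigua females, against 6.74 to 8.74 with a median of 7.66 in the others, which overlapped, with a difference of 1.12 ± 0.16 (2.17-fold, adjusted p = 0.00819). The sls call was lost without any 1 of the 3 Antigua female arrays (highest adjusted p 0.0212), the RyR call without Antigua female replicate 1 or 2 (highest 0.0777) and the bt call in 24 of 29 fits (highest 0.386, without Antigua female replicate 2) and without the pair of arrays named above (0.0309). CaMKII (0.76 ± 0.15) and zormin (0.38 ± 0.10) were not called in Antigua females, at an adjusted p of 1 each. The contrasts of Glasgow and of Antigua share their arrays, as each strain is among the other 4 of the other contrast.

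By group mean the females ran in the order Antigua, Hikone, France, Cambridge and Glasgow for sls, bt 152127_at, RyR and CaMKII. Not every step of that order is clear of the spread between replicates. The neighbours France and Cambridge overlapped for bt, RyR and CaMKII, Hikone and France overlapped for RyR, Antigua and Hikone overlapped for bt and CaMKII, and Cambridge and Glasgow, at 4.77 ± 0.58 and 4.76 ± 0.44 (SD, n = 3 each), overlapped for sls 142465_at. For sls 143611_at Hikone and France were the only pair of neighbours without overlap. For zormin the order was France, Hikone, Antigua, Cambridge and Glasgow, where the first 3, at 6.60, 6.47 and 6.44, overlapped and lay above the Cambridge and Glasgow arrays, which overlapped in turn.

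**Figure D4:**
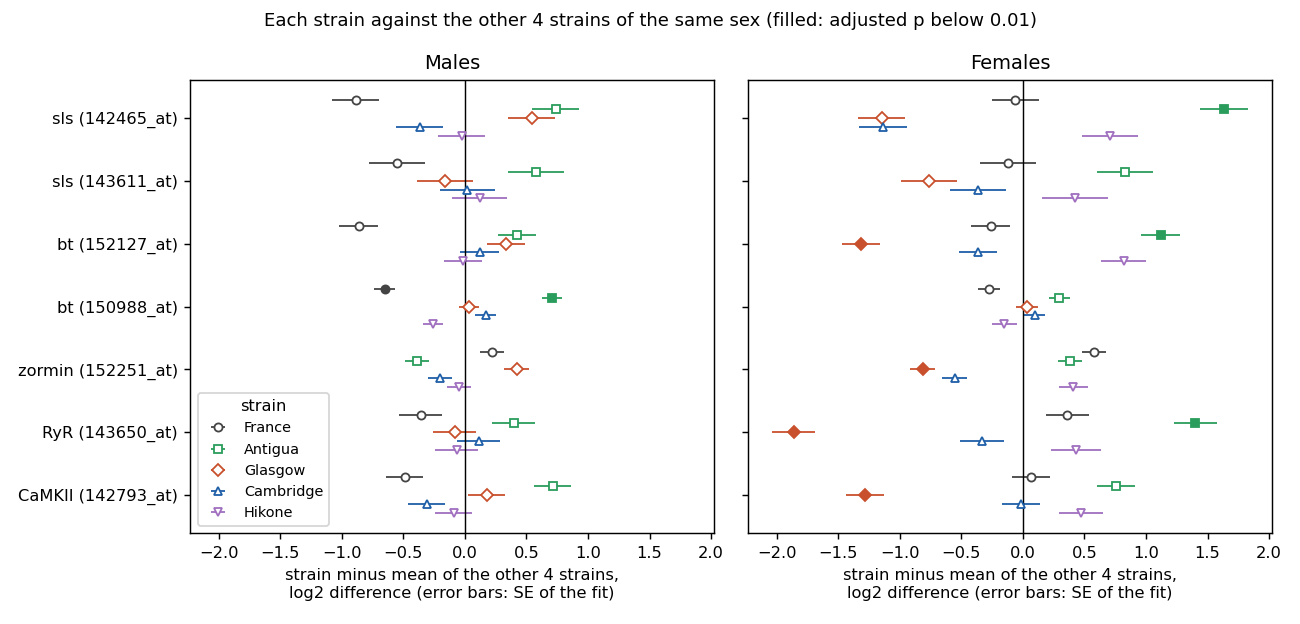
Log2 difference of each strain from the mean of the other 4 strains of the same sex (x axis) for the 7 probe sets that are not dim (rows), in males (left) and females (right), with the SE of the fit as error bars and filled symbols where the adjusted p is below 0.01. In females Glasgow is at the low end, except for bt 150988_at, and Antigua is at or near the high end, whereas France is at the low end in males for all but zormin.

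Among the males 1 of the 13 probe sets differed between strains, bt 150988_at (adjusted p = 0.000532), where 9.67% of all probe sets were called. The study had listed it as variable in males from these same arrays, so that the call is not independent evidence. This probe set was at 4.83, 4.74 and 4.69 in the France males, against 4.98 to 6.03 in the males of the other strains, a difference of -0.65 ± 0.08 (adjusted p = 0.00240, lost without any 1 of the 3 France male arrays, highest 0.0909). It was at 6.03, 5.64 and 5.85 in the Antigua males, against 4.69 to 5.48 in the others, a difference of 0.71 ± 0.08 (adjusted p = 0.000641, lost without Antigua male replicate 1 or 3, highest 0.0386). Neither strain overlapped with the rest. The background of calls was 2.18% lower in France males and 0.859% higher in Antigua males, and none is given for the lack of overlap. With the 15 male arrays fitted on their own 0 of the 13 were called for strain by limma (10 at an unadjusted p below 0.05), with bt 150988_at at an adjusted p of 0.0412, and its France and Antigua differences were not called either. That fit called 3.41% of all probe sets for strain, against 9.67% in the fit of both sexes.

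In the same contrast the other bt probe set, 152127_at, was at 8.78, 8.42 and 8.51 in France males, against 9.04 to 9.99 in the other males, a difference of -0.86 ± 0.16 that was not called (adjusted p = 0.246). Both bt probe sets therefore had their lowest male values in France and their highest male group mean in Antigua. In females they ran apart: 150988_at differed by 0.03 ± 0.09 between Glasgow and the other females, against the 1.31 by which 152127_at lay below them. The correlation of 150988_at with the lower quartile of its array was 0.42 over the 15 males and 0.81 over the 14 females.

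None of the probe sets that were low in Glasgow females was called in Glasgow males. In Glasgow males RyR lay at -0.08 ± 0.17 relative to the males of the other 4 strains, CaMKII at 0.18 ± 0.15, bt 152127_at at 0.34 ± 0.16, zormin at 0.42 ± 0.10 and sls 142465_at at 0.54 ± 0.19, each with an adjusted p of 1. Of these differences only that of RyR was negative. In Glasgow males 7 of the 13 probe sets had an unadjusted p below 0.05. RyR in males was at 8.81, 8.14 and 8.78 in Glasgow, against 8.24 to 9.05 in the other strains. The zormin order in males was led by Glasgow, at 7.85 ± 0.14 (SD, n = 3), and closed by Antigua, at 7.20 ± 0.06, whereas sls, bt, RyR and CaMKII were led by Antigua and closed by France. In males all neighbours in the CaMKII order overlapped.

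Averaged over the sexes 4 of the 13 probe sets differed between strains, bt 150988_at (adjusted p = 0.000471), sls 142465_at (0.00119), RyR (0.00255) and bt 152127_at (0.00609), where 15.8% of all probe sets were called. The zormin and CaMKII probe sets were not among them. The RyR call was lost in 7 and the bt 152127_at call in 21 of the 29 fits that left out 1 array, with a highest adjusted p of 0.0154 without Glasgow female replicate 3 for RyR and 0.0329 without Antigua female replicate 1 for bt. Without the pair of arrays named above it was 0.0385 for bt.

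How the probe sets that were not dim moved together is a description of these arrays. Over their 21 pairs the median correlation was 0.59 (-0.61 to 0.81) over the 15 male arrays and 0.76 (-0.16 to 0.95) over the 14 female arrays, where arrays of a strain share that strain. For zormin 152251_at and RyR it was -0.61 in males and 0.82 in females. The bt probe set 150988_at ran the other way, with a correlation of 0.81 in males and 0.29 in females with bt 152127_at, and of 0.73 in males and 0.15 in females with RyR.

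Genes whose pattern was most like that of each of the 5 were sought over the 29 arrays, with each sex centred on the mean of its groups, among 7281 to 7283 probe sets of other genes that reached a group mean of 5 or more. For RyR the 5 with the highest Pearson correlation were CG5177 (0.95), nrv3 (0.95), CG2269 (0.94), SERCA (0.93) and up (0.93), where SERCA encodes the pump that returns calcium to the sarcoplasmic reticulum and up encodes troponin T of the thin filament. For sls they were fau (0.94), M7BP (0.89), Mf (0.88), LTV1 (0.87) and up (0.87), where Mf encodes myofilin of the thick filament. For bt 152127_at they were RIC-3 (0.90), CG13124 (0.89), Drsl5 (0.89), fau (0.89) and CG32486 (0.89). For zormin they were l(2)efl (0.86), a small heat shock protein, CG7675 (0.82), peg (0.81), Obsc (0.81), which encodes the giant kinase obscurin of the middle of the sarcomere, and CG13751 (0.81). For CaMKII they were CG13124 (0.88), CG13868 (0.87), CG2269 (0.86), M7BP (0.86) and CG9813 (0.86). For 4 of these 5 zormin genes the correlation was lower in males than in females, with no test of that difference. It was also lower in males for every gene named here for RyR, sls, bt and CaMKII. For RyR and CG5177, for example, it was 0.56 in males alone and 0.98 in females alone. In males alone the correlations with zormin were 0.23 for Obsc, 0.43 for peg, 0.57 for CG13751, 0.60 for l(2)efl and 0.82 for CG7675, against 0.92, 0.92, 0.89, 0.91 and 0.82 in females alone.

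Other muscle genes were read from lists, each gene by its brightest probe set. Of 17 measured genes for elastic filament and Z-disc partners 12 were higher and 0 lower in males by limma (2 lower at an unadjusted p below 0.05), and of 11 thick and thin filament genes 8 were higher and 0 lower (also 0 at that unadjusted p), where 20.7% of 10843 genes were called as higher. The median difference between the sexes was 1.14 in the Z-disc list and 1.48 in the filament list, against -0.08 over all genes. The study named 7 muscle contraction genes besides the 5 members, of which Mp20, Tm2 and TpnC73F are also in the filament list, and 6 of these 7 were higher in males, with a median of 1.41. The 17 measured calcium handling and calmodulin pathway genes were mixed, with 6 higher and 5 lower in males and a median of 0.00. SERCA was higher in males by 0.83 ± 0.06 and Calx, the sodium and calcium exchanger, by 1.17 ± 0.10, both called. Lists of other cell types differed between the sexes as well. All 4 photoreceptor genes were called as higher in males, with a median of 1.31 and a mean level of 9.39 to 10.36 in male arrays, against 7.05 to 9.35 in female arrays. All 10 ovary and eggshell genes were called as lower in males, where 31.7% of all genes were, with a median of -7.08 and a mean level of 7.08 in Cambridge male replicate 1 and 2.66 to 3.10 in the other males, against 9.27 to 10.96 in females. Of 12 testis and accessory gland genes 10 were higher in males (median 7.61), and of 10 neuronal genes 3 were (median 0.39). The part of these cell types in the difference of the muscle genes between the sexes was not tested.

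Between females of the 5 strains 6 of the 17 Z-disc genes and 4 of the 11 filament genes were called, where 7.25% of all genes were, and 0 of the 17 calcium handling genes were called at the Bonferroni-adjusted threshold by limma, although 13 of them had an unadjusted p below 0.05. The Z-disc genes that varied most among females were CAP, Mlp60A, Zasp66 and Mlp84B. In Glasgow females CAP lay 1.39 ± 0.09, Zasp66 1.47 ± 0.13 and Mlp84B 1.76 ± 0.17 below the other strains, all 3 called. Mlp60A, a LIM protein gene, did not follow them: its difference in Glasgow females was -0.92 ± 0.24 and not called, while its group means ran from 3.49 to 7.00 in females. Of the filament genes, up lay 2.16 ± 0.24, Tm2 (a tropomyosin) 2.04 ± 0.26 and Mp20 1.48 ± 0.14 below the other strains in Glasgow females, all 3 called, and TpnC73F (a troponin C) at -0.93 ± 0.14 was not.

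As lower in Glasgow females 5 of the 17 Z-disc genes, 3 of the 11 filament genes and 1 of the 17 calcium handling genes were called, the last being SERCA at -0.84 ± 0.11 (adjusted p = 0.00416), where 3.32% of all genes were. None of these lists held a gene called as higher by limma, and at an unadjusted p below 0.05 there were 0, 0 and 4. The medians were -1.04, -1.57 and -0.05, against 0.03 over all genes. The mean level of the filament list was 8.48 to 9.46 in Glasgow female arrays and overlapped with the 8.64 to 10.61 of Cambridge females. Replicates spread widely, as in Antigua females, at 9.62 to 11.24. By group mean the list was highest in France females, at 11.20. Of the 7 other genes named by the study 5 were lower, with a median of -1.24, and 6 were called among the females of all strains. This is not independent evidence because the study drew them from these arrays, and the same holds for Tm2 and Mp20, which are 2 of the 3 filament genes called. In Glasgow males the same lists had medians of -0.03, -0.08, 0.03 and -0.09, against 0.09 over all genes.

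Markers of other cell types moved in Glasgow females as well. Of 4 photoreceptor genes 3 were called as lower, with a median of -1.86, and their mean level was 7.05 to 7.32 in the 3 Glasgow female arrays, against 7.91 to 9.35 in the other females. Of 7 haemocyte and basement membrane genes 3 were called as lower, Pxn, vkg and Col4a1, with a median of -1.05 and a mean level of 5.21 to 5.27 in Glasgow females, against 5.80 to 6.20 in the others. Of the defining haemocyte receptors, eater and NimC1 were below 5 in both sexes. Of 10 ovary and eggshell genes 0 were called by limma (3 lower and 0 higher at an unadjusted p below 0.05). Their median was -0.88, against 0.025 over all genes, with 6 below and 4 above the other strains. Their mean level was 9.70 to 10.38 in Glasgow females, against 9.27 to 10.96 in the others. The 10 neuronal genes had a median of -0.03 and 0 calls by limma (1 lower and 0 higher at an unadjusted p below 0.05), and 6 of them were below 5 in both sexes. In Antigua females the ovary and eggshell list had its lowest mean level, 9.27 to 9.998, with 1 of 10 genes called as lower. Its median there was -0.64, against 0.04 over all genes. The photoreceptor list had a median of 0.78 there, with 1 of 4 genes called as higher, Arr2 at 0.91 (adjusted p = 0.00460), and a mean level of 8.72 to 9.35 in Antigua females, against 7.05 to 9.22 in the others. Of the muscle lists in Antigua females 1 of the 17 Z-disc genes was called as higher, CAP (adjusted p = 6.6e-05), and 1 of the 11 filament genes, TpnC73F (0.00816), which the study also named from these arrays, with medians of 0.62 and 0.58, against 0.04 over all genes, of which 0.848% were called as higher. The part of these cell types in the muscle values was not tested.

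**Figure D5:**
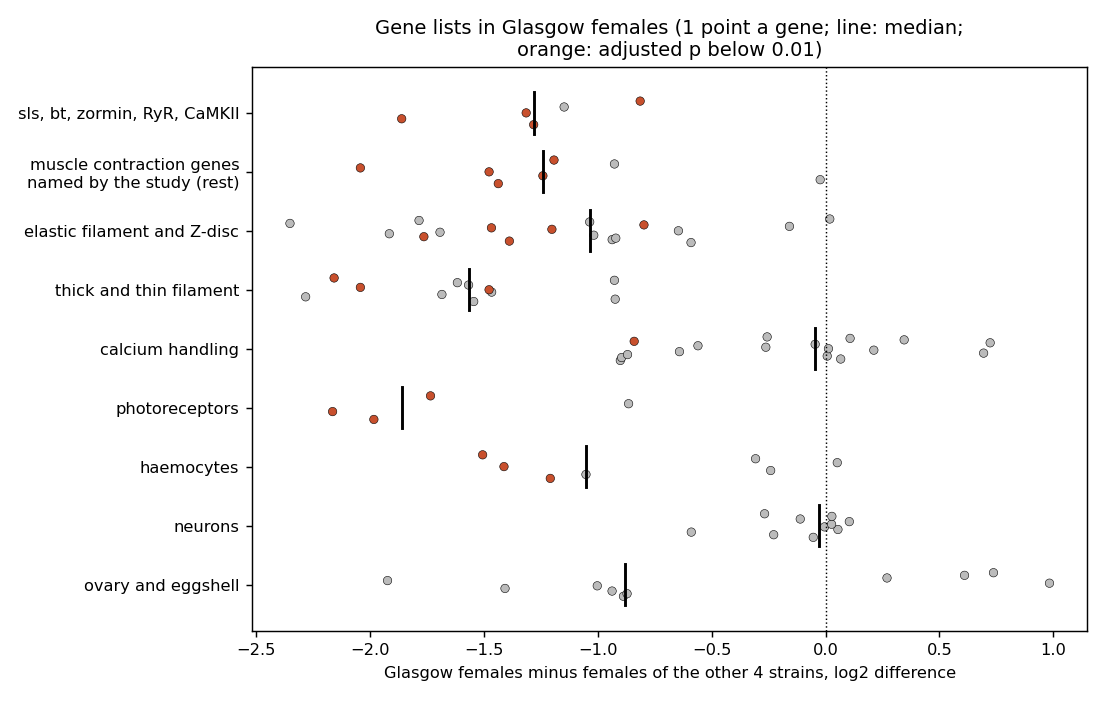
Log2 difference of Glasgow females from the females of the other 4 strains (x axis) for the genes of each list (rows), 1 point a gene by its brightest probe set, orange where the adjusted p is below 0.01, with a black line at the median of the list. The medians of the muscle, photoreceptor, haemocyte and ovary and eggshell lists lie below 0. Calcium handling and neuronal genes are spread around 0, with medians close to it.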

How the data were processed

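Expression was measured on 29 Affymetrix Drosophila Genome 1 arrays. The authors deposited log2 values made with GCRMA, which corrects background by the GC content of probes, with quantile normalization over arrays. Versions are not given in the sources used here. The values were used as deposited. As arrays give no counts, their number limits the precision.

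After 44 array controls were left out, 1 mean for each group of a strain and sex was fitted to all 29 arrays by limma 3.58.1 (R 4.3.3), and the spread was moderated by empirical Bayes. Males minus females was averaged over strains with equal weight, strains were compared by moderated F-tests within each sex, averaged over sex and as an interaction, and single strains were set against the mean of the other 4. All p were adjusted by Bonferroni over 13966 probe sets and called below 0.01. The fit was tested on simulated data.

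Platform annotation gave 1 symbol for 12442 probe sets, several for 327 and none for 1197. The CaMKII probe set was named by an identifier in a supplementary list of the study. A gene list reads each gene by its brightest probe set. The rule named every probe set of the 5 genes, up to 4 genes of a list by their F-statistic among females and the 5 genes most alike for each member. The members and lists were chosen with earlier results of these data known, and the contrast of sex differences between strains was added after the interaction was seen. No sequences were used here. Alternatives tried were other adjustments, thresholds, scalings, array weights, trend and robust moderation, separate fits by sex, a replicate block, and leaving out dim probe sets, single arrays or strains.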

Additional observations from a re-analysis of the deposited data

Results flagged for a closer look

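The difference between males and females of zormin (152251_at) differed between strains, by the test of the interaction of sex and strain itself (adjusted p = 0.00125, limma). Males exceeded females by 2.36 in Glasgow, 1.66 in Cambridge, 1.09 in France, 1.01 in Hikone and 0.76 in Antigua on the log2 scale. The call was just lost without Glasgow male replicate 2, and lost without the strain France or the strain Glasgow. The study had listed this probe set as variable in females from the same arrays, so that the call is not independent evidence.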

How the results depend on the processing

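The 6 calls between males and females did not depend on any single array, and the counts for strain did on several settings. Counts are given for sex (6 as reported), strain averaged over sex (4), strain in females (5), strain in males (1), the interaction (1), 1 strain against the others in females (7) and males (2), and males against females within strains (11). With Benjamini-Hochberg adjustment they were 10, 11, 8, 9, 5, 17, 15 and 31. The share of all probe sets called by that adjustment is not given here. The same holds for the other settings below, except strain in the fits of each sex alone. Counts without that share describe the settings and have no background. At an adjusted p below 0.05 strain in males gave 2 and the interaction 3, and below 0.0001 averaged strain gave 0, strain in females 1, strain in males 0, the interaction 0, and single strains 1 in females and 0 in males. Centring arrays on their medians moved the median of all probe sets between the sexes from -0.08 to -0.20 and gave 10 calls for sex. The 4 added calls were dim and lower in males, and zormin 148021_at turned to -0.0397 (0.08 as deposited). Repeated quantile normalization and a minimum group mean of 5 each gave 2 for the interaction. Array weights gave 8 for averaged strain, 2 in males, 5 for the interaction and 11 for single strains in females. With each sex fitted alone, which leaves fewer arrays behind the spread, strain in females gave 0, strain in males 0, and single strains 1 in females and 0 in males. These fits called 0.909% of all probe sets for strain in females and 3.41% in males. Without the strain France, averaged strain gave 0, females 3, males 0 and the interaction 0. Without Antigua these were 0, 3, 0 and 2, and without Glasgow averaged strain gave 2, females 1 and the interaction 0. Where not stated by construction, the cause was not tested. Leaving out 1 array at a time gave 6 to 6 for sex, 2 to 5 for averaged strain, 4 to 5 in females, 1 to 1 in males, 0 to 3 for the interaction, 3 to 8 and 1 to 2 for single strains in females and males, and 10 to 13 within strains. Replicate numbers did not pair the samples: over 126 pairs of arrays with the same number in different groups the correlation of deviations had a median of -0.00 and 21 were over 0.1. With the replicate block the counts were 6, 4, 4, 1, 1, 7, 2 and 11. Trend and robust moderation left every count within 1.5 times the reported one. The dim probe sets have too little signal for a statement on their transcripts.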
